A study of Mus musculus with 32 samples.

Results

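The collagen genes were examined in livers of male and female mice. They are the rows of both count tables whose symbol is Col followed by a digit, 45 of 41585 gene entries. Of these, 44 code for collagen chains and were analysed as 11 fibrillar, 8 basement membrane and 25 other collagens, and the remaining entry, Col4a3bp, codes for a ceramide transfer protein and was set apart. The mice were WT or Cyp2b9/10/13-null (Cyp2b-null), both labelled C57BL/6 (C57Bl/6J in the methods of the study), and were 10 weeks old when they started 8 weeks on either normal chow (ND) with 6.2% fat or CDAHFD, a high-fat diet without choline that supplies L-amino acids in place of protein, with 62% fat and 0.1% methionine. The Cyp2b-null mice had been made with CRISPR/Cas9, whereas the WT mice were bought from The Jackson Laboratory, so genotype and the source of the mice cannot be told apart. Each of the 8 combinations of sex, genotype and diet had 4 liver RNA-seq libraries, 32 in all.

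Collagens are secreted proteins in which chains wind around each other in a triple helix. Fibrillar collagens such as types I, III and V form the fibers that accumulate in a scarred liver, whereas type IV forms the network of basement membranes and types XV and XVIII sit at its border. Other types form beaded filaments (type VI), coat fibrils (types XII, XIV and XVI) or span cell membranes (type XIII). In the liver, hepatic stellate cells and portal fibroblasts are known as the main makers of fibrillar collagen, and hepatocytes are a known source of Col18a1. CDAHFD is used as a model of steatohepatitis that develops fibrosis, and the comparisons below ask how each collagen mRNA changed with the diet, whether loss of Cyp2b altered it and whether the sexes differed.

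Total counts on genes ranged from 2906411 to 10166959 per library, and a count of 3, taken as the floor of detection, corresponded to 0.25 to 1.15 CPM, which covers counting error only. The targeted genes followed the genotype labels in females, with 683 to 3530 Cyp2b9 counts in each WT library and at most 8 in each Cyp2b-null library. In males they did so for Cyp2b10 on ND (33 to 97 counts against 1 to 9) and for Cyp2b9 on CDAHFD (118 to 364 counts against 2 to 7). Nothing states that the 4 libraries of a group came from separate mice, so p-values measure the spread between these libraries.

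Promoter windows of 35 of the 44 collagen genes were found in RefSeq (GRCm38.p6). Col1a1 is not among them. The stretches upstream of 4 fibrillar genes are shown, 3 that rose with the diet in every comparison and 1 whose diet change differed between the sexes. Each is written 5′ to 3′ on the strand of the gene and ends at the last base before the annotated gene, and capitals mark letters of a CCAAT box (CCAAT), a GC box (GGGCGG), an AP-1 site (TGANTCA) or a TATA box (TATAAA) on either strand. Col1a2 (chr6:4505368-4505617, plus strand) and Col3a1 (chr1:45311288-45311537, plus strand) rose by similar amounts, Col5a1 (chr2:27886175-27886380, plus strand) rose less, and Col5a3 (chr9:20815118-20815317, minus strand) rose in females and not in males.
Col1a2: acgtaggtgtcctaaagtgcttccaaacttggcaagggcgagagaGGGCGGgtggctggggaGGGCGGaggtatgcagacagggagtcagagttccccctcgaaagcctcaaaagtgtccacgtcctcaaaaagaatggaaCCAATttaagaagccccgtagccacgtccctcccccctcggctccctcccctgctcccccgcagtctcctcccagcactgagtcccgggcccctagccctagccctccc
Col3a1: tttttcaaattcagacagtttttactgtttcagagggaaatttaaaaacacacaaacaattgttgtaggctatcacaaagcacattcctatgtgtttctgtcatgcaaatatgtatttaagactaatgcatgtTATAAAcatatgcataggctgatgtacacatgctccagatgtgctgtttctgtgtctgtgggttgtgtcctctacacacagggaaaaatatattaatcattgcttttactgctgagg
Col5a1: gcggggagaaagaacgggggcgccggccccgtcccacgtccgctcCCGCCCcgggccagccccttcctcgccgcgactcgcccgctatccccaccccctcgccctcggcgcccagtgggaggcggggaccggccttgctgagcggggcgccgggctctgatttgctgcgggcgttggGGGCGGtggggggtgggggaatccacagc
Col5a3: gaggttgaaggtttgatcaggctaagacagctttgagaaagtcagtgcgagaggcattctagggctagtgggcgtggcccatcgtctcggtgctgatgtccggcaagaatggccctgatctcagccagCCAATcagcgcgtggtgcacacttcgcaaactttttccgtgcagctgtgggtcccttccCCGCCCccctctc
The 250 bases before Col1a2 held 1 CCAAT box and 2 GC boxes, and the 250 bases before Col3a1 held 1 TATA box. Among the first 250 bases of all 32851 windows, 33.8% held a CCAAT box, 32.7% a GC box, 6.75% an AP-1 site and 12.4% a TATA box. The 206 bases before Col5a1 held 2 GC boxes, found in 25.8% of windows at that length, and the 200 bases before Col5a3 held 1 CCAAT box and 1 GC box, found in 28.4% and 24.6% of windows at that length. None of the 4 stretches held the letters of an AP-1 site, and no pair of motifs overlapped. These matches describe letters only, and no binding was measured.

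The CDAHFD changed the make-up of collagen mRNA more than its total. All 44 genes together summed to 1248 ± 174 CPM (mean ± SD, n = 4) in ND-fed WT females and to 1681 ± 234 CPM in CDAHFD-fed WT females, a ratio of means of 1.35. The ratio was 1.25 in WT males, 1.30 in Cyp2b-null females and 1.47 in Cyp2b-null males. Fibrillar collagens alone rose from 75.0 ± 19.3 to 425 ± 75.5 CPM in WT females, from 93.5 ± 2.77 to 420.1 ± 98.9 CPM in WT males, from 71.3 ± 9.44 to 416 ± 47.0 CPM in Cyp2b-null females and from 103 ± 18.7 to 529 ± 102 CPM in Cyp2b-null males, with no overlap between diets. As a share of collagen counts, they made up 6.04% to 8.17% on ND and 23.0% to 28.2% on CDAHFD (group means), as the plot of class shares shows.

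**Figure D1:**
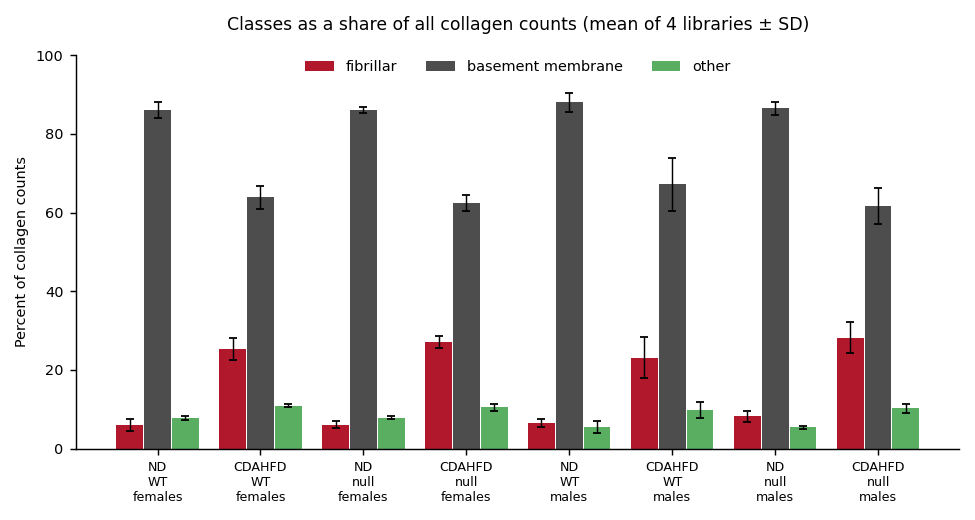
Share of all collagen counts (percent, vertical axis) taken by fibrillar, basement membrane and other collagens in the 8 groups (horizontal axis). Bars are means of 4 libraries and error bars SD. The basement membrane share was 86.1% to 88.0% on ND and 61.6% to 67.2% on CDAHFD.

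A single gene, Col18a1, held most of the basement membrane sum in all 8 groups. Its product releases endostatin, and it had 147 to 220.0 CPM per kb of transcript (group means) and was the highest collagen mRNA in every group. Per kb, Col14a1 came next on ND (6.11 to 9.82 CPM per kb). In ND-fed females it was followed by Col4a1 (4.52 to 4.71 CPM per kb) and Col3a1 (4.09 to 4.18 CPM per kb), and in ND-fed males Col3a1, Col4a1, Col5a3 and Col27a1 lay together at 3.25 to 4.37 CPM per kb, closer than the spread between libraries. On CDAHFD, Col3a1 was second in every group at 36.6 to 45.6 CPM per kb, and Col1a2, Col1a1, Col4a1 and Col14a1 followed at 11.4 to 20.1 CPM per kb. Without Col18a1, the other collagens summed to 217 to 236 CPM on ND and to 712 to 893 CPM on CDAHFD (group means), a ratio of 3.13 to 4.11. Fewer cells of a type and less RNA per cell cannot be told apart in such bulk libraries.

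Of the 44 genes, 21 passed the count filter in females and 22 in males. In WT females, 14 of the 21 rose and 2 fell, where 13.9% of all 13226 genes tested rose and 10.2% fell. Among WT males 11 of 22 rose and 2 fell, against 18% and 15% of 13460 genes. In Cyp2b-null females 13 of 21 rose and 2 fell, against 16.9% and 13.9%, and in Cyp2b-null males 13 of 22 rose and 3 fell, against 20.3% and 17.1% (37.4% in either direction). The median log2 change of the tested collagens was 1.13 in WT females, 1.27 in WT males, 1.14 in Cyp2b-null females and 1.59 in Cyp2b-null males, and that of all genes lay between -0.023 and 0.027. Scaled by library size only, all genes split into 3910 higher and 491 lower in WT females (TMM: 1838 and 1355), and into 5111 and 580 in WT males (2426 and 2017), 4019 and 666 in Cyp2b-null females (2240 and 1834) and 5159 and 818 in Cyp2b-null males (2737 and 2301), while the collagens called became 14 and 2, 15 and 2, 14 and 1, and 15 and 3 in the same order.

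**Figure D2:**
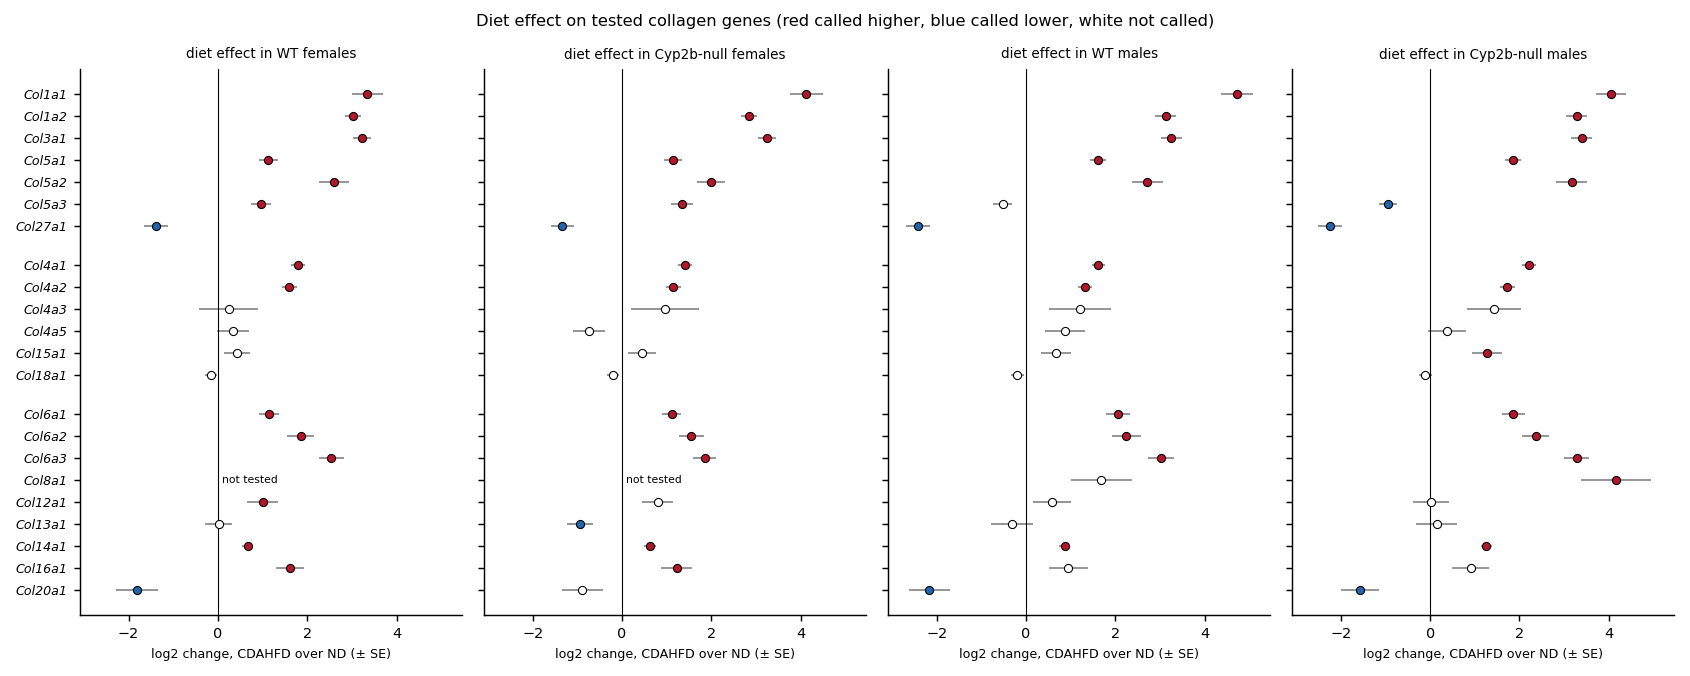
Log2 change by diet (CDAHFD over ND, horizontal axis) of the 22 tested collagen genes (vertical axis, from top to bottom fibrillar, basement membrane and other) in the 4 combinations of sex and genotype. Points are edgeR estimates, bars their SE, and color marks genes with an adjusted p under 0.05. Col5a3 lies right of 0 in females and left of 0 in males, and Col27a1 lies left of 0 in all 4 panels.

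Among the 7 fibrillar genes tested, 6 rose and 1 fell in females of both genotypes, 5 rose and 1 fell in WT males, and 5 rose and 2 fell in Cyp2b-null males. Of all genes, 24.1% were called in WT females, 30.8% in Cyp2b-null females, 33% in WT males and 37.4% in Cyp2b-null males. Type I collagen, the main fiber of scar tissue, rose in every comparison. In females, Col1a1 measured 2.78, 3.44, 17.2 and 5.34 CPM in ND-fed WT and 48.1, 67.3, 81.7 and 73.1 CPM in CDAHFD-fed WT libraries, and 3.63, 2.58, 5.38 and 5.02 CPM in ND-fed and 61.4, 83.6, 76.2 and 60.8 CPM in CDAHFD-fed Cyp2b-null libraries. In males, Col1a1 measured 5.33, 2.15, 2.47 and 2.62 CPM in ND-fed WT and 71.1, 58.5, 113 and 86.1 CPM in CDAHFD-fed WT libraries, and 3.22, 3.87, 12.9 and 7.09 CPM in ND-fed and 95.96, 111, 143 and 78.1 CPM in CDAHFD-fed Cyp2b-null libraries. Every CDAHFD-fed library lay above every ND-fed library of its sex, while the ND-fed WT female replicate 3 (17.2 CPM) and Cyp2b-null male replicate 3 (12.9 CPM) stood highest on ND. On the log2 scale Col1a1 changed by 3.35 ± 0.34 (SE, adjusted p = 5.31e-07) in WT females, 4.73 ± 0.36 (SE, adjusted p = 4.39e-09) in WT males, 4.13 ± 0.37 (SE, adjusted p = 7.1e-08) in Cyp2b-null females and 4.05 ± 0.33 (SE, adjusted p = 7.35e-09) in Cyp2b-null males.

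Its partner chain Col1a2 started higher and spread less. In females, Col1a2 measured 10.1, 7.27, 11.4 and 12.1 CPM in ND-fed WT and 64.3, 76.3, 101 and 92.9 CPM in CDAHFD-fed WT libraries, and 13.9, 9.12, 11.5 and 10.5 CPM in ND-fed and 78.7, 90.1, 77.8 and 69.9 CPM in CDAHFD-fed Cyp2b-null libraries. In males, Col1a2 measured 11.8, 5.79, 9.06 and 10.3 CPM in ND-fed WT and 63.7, 58.5, 108 and 87.9 CPM in CDAHFD-fed WT libraries, and 8.34, 8.43, 16.6 and 11.5 CPM in ND-fed and 101, 106, 135 and 87.7 CPM in CDAHFD-fed Cyp2b-null libraries. No CDAHFD-fed library overlapped an ND-fed library. Col1a2 rose by 3.03 ± 0.18 (SE) on the log2 scale in WT females, 3.12 ± 0.24 (SE) in WT males, 2.85 ± 0.18 (SE) in Cyp2b-null females and 3.28 ± 0.24 (SE) in Cyp2b-null males (adjusted p from 3.06e-10 to 6.5e-09).

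Type III collagen, which is built from Col3a1 alone and is found beside type I in soft tissue, was the most abundant fibrillar mRNA per kb in every CDAHFD-fed group. In females, Col3a1 measured 19.1, 18.7, 29.6 and 25.5 CPM in ND-fed WT and 166, 213, 249 and 231 CPM in CDAHFD-fed WT libraries, and 26.6, 14.3, 25.3 and 24.8 CPM in ND-fed and 198, 258, 202 and 179.6 CPM in CDAHFD-fed Cyp2b-null libraries. In males, Col3a1 measured 21.9, 17.5, 18.8 and 28.2 CPM in ND-fed WT and 173, 175, 272 and 195 CPM in CDAHFD-fed WT libraries, and 21.5, 15.03, 38.8 and 21.5 CPM in ND-fed and 224, 249, 327 and 215 CPM in CDAHFD-fed Cyp2b-null libraries. The lowest CDAHFD-fed library (166 CPM) was far above the highest ND-fed library (38.8 CPM). Its log2 change was 3.23 ± 0.20 (SE) in WT females, 3.25 ± 0.24 (SE) in WT males, 3.24 ± 0.20 (SE) in Cyp2b-null females and 3.40 ± 0.24 (SE) in Cyp2b-null males (adjusted p from 4.22e-10 to 2.81e-09).

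**Figure D3:**
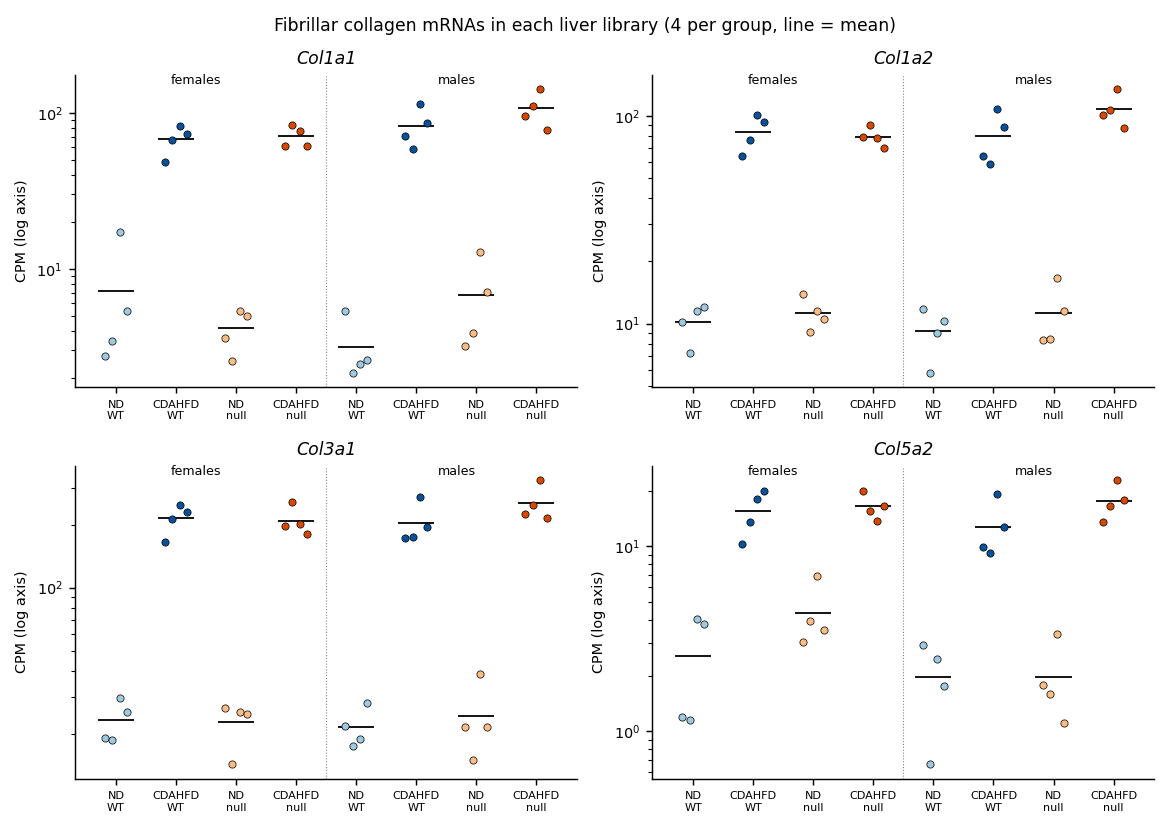
CPM (vertical, log axis) of Col1a1, Col1a2, Col3a1 and Col5a2 in each of the 32 libraries, by group (horizontal axis, females left and males right of the dotted line). Points are libraries and lines group means. CDAHFD-fed libraries lie above ND-fed libraries throughout, with Col3a1 at 166 to 327 CPM on CDAHFD and 14.3 to 38.8 CPM on ND.

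Type V collagen, which starts fibrils and limits their width, rose less, and its chains did not move together. In females, Col5a1 measured 11.3, 6.50, 7.74 and 8.96 CPM in ND-fed WT and 14.01, 18.6, 20.7 and 22.5 CPM in CDAHFD-fed WT libraries, and 6.96, 7.14, 10.4 and 9.70 CPM in ND-fed and 23.9, 15.7, 16.8 and 17.98 CPM in CDAHFD-fed Cyp2b-null libraries. In males, Col5a1 measured 4.96, 7.11, 7.13 and 7.44 CPM in ND-fed WT and 16.7, 19.98, 23.03 and 21.1 CPM in CDAHFD-fed WT libraries, and 7.45, 7.97, 5.48 and 5.76 CPM in ND-fed and 28.8, 19.6, 24.6 and 23.99 CPM in CDAHFD-fed Cyp2b-null libraries. Diets did not overlap within a sex and genotype. Col5a1 rose by 1.13 ± 0.21 (SE) in WT females, 1.14 ± 0.21 (SE) in Cyp2b-null females, 1.60 ± 0.18 (SE) in WT males and 1.85 ± 0.18 (SE) in Cyp2b-null males on the log2 scale (adjusted p from 8.14e-08 to 0.00039).

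Col5a2, which lies tail to tail with Col3a1 on chromosome 1 with a gap of 24624 bases, started near the floor of detection. In females, Col5a2 measured 1.19, 1.15, 4.04 and 3.79 CPM in ND-fed WT and 10.3, 13.5, 18.1 and 19.8 CPM in CDAHFD-fed WT libraries, and 3.02, 3.97, 6.91 and 3.51 CPM in ND-fed and 19.9, 15.5, 13.7 and 16.5 CPM in CDAHFD-fed Cyp2b-null libraries. In males, Col5a2 measured 2.94, 0.662, 2.47 and 1.75 CPM in ND-fed WT and 9.86, 9.16, 19.3 and 12.8 CPM in CDAHFD-fed WT libraries, and 1.78, 1.59, 3.37 and 1.11 CPM in ND-fed and 13.5, 16.5, 22.8 and 17.8 CPM in CDAHFD-fed Cyp2b-null libraries. Values on ND rested on as few as 3 counts in a library. Its log2 change was 2.60 ± 0.33 (SE) in WT females, 2.71 ± 0.35 (SE) in WT males, 1.99 ± 0.30 (SE) in Cyp2b-null females and 3.17 ± 0.34 (SE) in Cyp2b-null males (adjusted p from 3.61e-07 to 5.09e-05).

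The third type V chain, Col5a3, differed between the sexes. In females, Col5a3 measured 10.9, 8.03, 12.1 and 9.31 CPM in ND-fed WT and 15.1, 26.9, 20.3 and 15.8 CPM in CDAHFD-fed WT libraries, and 3.63, 7.74, 6.53 and 7.19 CPM in ND-fed and 20.1, 12.7, 13.03 and 18.2 CPM in CDAHFD-fed Cyp2b-null libraries. In males, Col5a3 measured 20.4, 28.95, 21.8 and 17.7 CPM in ND-fed WT and 18.02, 14.4, 15.7 and 13.8 CPM in CDAHFD-fed WT libraries, and 29.5, 22.3, 17.5 and 32.1 CPM in ND-fed and 8.69, 16.6, 13.8 and 13.3 CPM in CDAHFD-fed Cyp2b-null libraries. On ND the males of both genotypes (17.5 to 32.1 CPM) lay above all females (3.63 to 12.1 CPM), and on CDAHFD the sexes overlapped. Col5a3 rose by 0.97 ± 0.23 (SE, adjusted p = 0.00394) in WT females and by 1.34 ± 0.24 (SE, adjusted p = 0.000321) in Cyp2b-null females, whereas it fell in Cyp2b-null males by a log2 difference of -0.94 ± 0.21 (SE, adjusted p = 0.000994). In WT males its log2 change was -0.52 ± 0.21 (SE, adjusted p = 0.0567), which passed the threshold without a low-count filter (adjusted p = 0.0236), when only both WT male groups were fitted (adjusted p = 0.0471) and without ND-fed WT male replicate 4 (adjusted p = 0.036).

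Col27a1, a fibrillar chain best known from cartilage, went the other way. In females, Col27a1 measured 10.1, 8.03, 15.5 and 16.2 CPM in ND-fed WT and 4.16, 4.72, 6.78 and 3.44 CPM in CDAHFD-fed WT libraries, and 19.4, 11.7, 10.8 and 11.04 CPM in ND-fed and 5.28, 5.08, 3.93 and 5.91 CPM in CDAHFD-fed Cyp2b-null libraries. In males, Col27a1 measured 25.2, 30.9, 28.5 and 29.3 CPM in ND-fed WT and 4.36, 2.91, 5.96 and 7.45 CPM in CDAHFD-fed WT libraries, and 39.5, 17.5, 24.02 and 23.04 CPM in ND-fed and 7.57, 4.58, 6.50 and 3.28 CPM in CDAHFD-fed Cyp2b-null libraries. Each ND-fed library exceeded every CDAHFD-fed library of its sex, and ND-fed males (17.5 to 39.5 CPM) were mostly above ND-fed females (8.03 to 19.4 CPM). Col27a1 fell, with log2 changes of -1.38 ± 0.27 (SE, adjusted p = 0.000678) in WT females, -1.34 ± 0.26 (SE, adjusted p = 0.000648) in Cyp2b-null females, -2.43 ± 0.27 (SE, adjusted p = 6.68e-07) in WT males and -2.24 ± 0.26 (SE, adjusted p = 9.28e-07) in Cyp2b-null males. The other 4 fibrillar genes, Col2a1, Col11a1, Col11a2 and Col24a1, had too few counts to be tested in either sex.

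Of 6 basement membrane genes tested, 2 rose in WT mice of both sexes and in Cyp2b-null females, 3 rose in Cyp2b-null males and 0 fell. The share called was 33.3% in the first 3 comparisons, near that of all genes in WT males (33%) and Cyp2b-null females (30.8%). In WT females 24.1% of all genes were called. In Cyp2b-null males the share was 50% of the 6 genes, against 37.4% of all genes. Col4a1 and Col4a2 code for the type IV chains found in nearly every basement membrane and lie head to head on chromosome 8, where their annotations overlap by 85 bases (11312805 to 11312889). A read in that overlap could count for either gene. In females, Col4a1 measured 31.8, 37.9, 27.9 and 27.1 CPM in ND-fed WT and 82.7, 100.3, 116 and 121 CPM in CDAHFD-fed WT libraries, and 31.5, 34.3, 21.9 and 31.95 CPM in ND-fed and 70.9, 88.8, 73.7 and 80.95 CPM in CDAHFD-fed Cyp2b-null libraries. In males, Col4a1 measured 28.3, 37.1, 22.9 and 27.3 CPM in ND-fed WT and 76.8, 102, 93.9 and 81.1 CPM in CDAHFD-fed WT libraries, and 20.8, 24.1, 22.5 and 18.6 CPM in ND-fed and 95.5, 84.5, 118 and 99.8 CPM in CDAHFD-fed Cyp2b-null libraries. CDAHFD-fed libraries (70.9 to 121 CPM) lay above all ND-fed libraries (18.6 to 37.9 CPM). On the log2 scale Col4a1 changed by 1.79 ± 0.16 (SE, adjusted p = 1.02e-07) in WT females, 1.62 ± 0.15 (SE, adjusted p = 5.71e-08) in WT males, 1.41 ± 0.16 (SE, adjusted p = 1.79e-06) in Cyp2b-null females and 2.21 ± 0.15 (SE, adjusted p = 1.25e-09) in Cyp2b-null males.

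Col4a2 followed the same pattern at a lower level. In females, Col4a2 measured 22.3, 21.04, 15.5 and 16.4 CPM in ND-fed WT and 51.9, 49.8, 68.6 and 53.6 CPM in CDAHFD-fed WT libraries, and 19.4, 21.8, 13.8 and 19.2 CPM in ND-fed and 36.98, 41.4, 36.9 and 48.4 CPM in CDAHFD-fed Cyp2b-null libraries. In males, Col4a2 measured 18.02, 26.8, 16.6 and 19.03 CPM in ND-fed WT and 48.9, 53.1, 51.8 and 46.1 CPM in CDAHFD-fed WT libraries, and 17.1, 16.6, 17.9 and 14.6 CPM in ND-fed and 46.05, 44.4, 63.9 and 66.2 CPM in CDAHFD-fed Cyp2b-null libraries. Again the diets did not overlap. Its log2 change was 1.60 ± 0.17 (SE) in WT females, 1.32 ± 0.16 (SE) in WT males, 1.15 ± 0.17 (SE) in Cyp2b-null females and 1.73 ± 0.16 (SE) in Cyp2b-null males (adjusted p from 5.09e-08 to 2.69e-05).

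Col15a1, found where basement membranes meet the fibers around them, passed the test in Cyp2b-null males only, a difference between groups that did not pass a test of its own. In females, Col15a1 measured 9.54, 5.36, 7.74 and 11.03 CPM in ND-fed WT and 6.57, 12.7, 11.2 and 15.2 CPM in CDAHFD-fed WT libraries, and 10.3, 4.56, 11.5 and 5.69 CPM in ND-fed and 9.31, 14.4, 8.57 and 8.32 CPM in CDAHFD-fed Cyp2b-null libraries. In males, Col15a1 measured 3.31, 10.6, 4.39 and 5.03 CPM in ND-fed WT and 10.4, 7.29, 10.5 and 8.87 CPM in CDAHFD-fed WT libraries, and 7.89, 3.42, 4.004 and 3.10 CPM in ND-fed and 7.89, 11.7, 17.3 and 9.02 CPM in CDAHFD-fed Cyp2b-null libraries. The diets overlapped in females of both genotypes and in WT males, and met at 7.89 CPM in Cyp2b-null males. The log2 change was 1.27 ± 0.34 (SE, adjusted p = 0.00528) in Cyp2b-null males, 0.67 ± 0.34 (SE, adjusted p = 0.138) in WT males, 0.43 ± 0.30 (SE, adjusted p = 0.337) in WT females and 0.45 ± 0.31 (SE, adjusted p = 0.284) in Cyp2b-null females. In WT males it passed without a low-count filter (adjusted p = 0.0488), under scaling by library size only (adjusted p = 0.0203) and without ND-fed WT male replicate 2 (1.14, adjusted p = 0.0124).

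Col18a1 was the gene with the most collagen counts and showed no called change. In females, Col18a1 measured 918, 942, 931 and 1257 CPM in ND-fed WT and 842, 871, 1088 and 771 CPM in CDAHFD-fed WT libraries, and 888, 972, 960.1 and 1009 CPM in ND-fed and 895, 829.7, 829 and 736 CPM in CDAHFD-fed Cyp2b-null libraries. In males, Col18a1 measured 978, 1497, 1099 and 1349.9 CPM in ND-fed WT and 1264, 1143, 989 and 903 CPM in CDAHFD-fed WT libraries, and 1203, 1041, 1098 and 873 CPM in ND-fed and 1016, 982, 903 and 998 CPM in CDAHFD-fed Cyp2b-null libraries. The diets overlapped in WT females and in males of both genotypes, and in Cyp2b-null females the highest CDAHFD-fed library (895 CPM) was above the lowest ND-fed library (888 CPM). The log2 change was -0.16 ± 0.13 (SE) in WT females, -0.19 ± 0.13 (SE) in Cyp2b-null females, -0.19 ± 0.15 (SE) in WT males and -0.11 ± 0.15 (SE) in Cyp2b-null males (adjusted p from 0.291 to 0.597), and each of the 4 values was positive when libraries were scaled by size only. The kidney and lung chains Col4a3 and Col4a5 had at most 5.74 and 6.53 CPM and were not called, with log2 changes of 0.24 to 1.44 and -0.74 to 0.87. In Cyp2b-null males, Col4a3 passed with DESeq2 (adjusted p = 0.0466), without a low-count filter (0.046) and under scaling by library size only (0.017). Col4a4 and Col4a6 were not tested.

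Among the other collagens, 6 of 8 tested rose and 1 fell in WT females, 5 of 8 rose and 1 fell in Cyp2b-null females, 4 of 9 rose and 1 fell in WT males, and 5 of 9 rose and 1 fell in Cyp2b-null males. The shares called were 87.5%, 75%, 55.6% and 66.7% in that order, against 24.1%, 30.8%, 33% and 37.4% of all genes. The type VI chains, which form beaded filaments around cells, rose in all 4 comparisons. In females, Col6a1 measured 7.55, 7.65, 8.75 and 11.5 CPM in ND-fed WT and 14.01, 18.4, 23.5 and 22.02 CPM in CDAHFD-fed WT libraries, and 8.16, 10.5, 11.9 and 7.36 CPM in ND-fed and 13.6, 25.5, 20.2 and 19.3 CPM in CDAHFD-fed Cyp2b-null libraries. In males, Col6a1 measured 8.27, 2.98, 5.08 and 7.87 CPM in ND-fed WT and 22.4, 20.8, 29.6 and 25.6 CPM in CDAHFD-fed WT libraries, and 8.11, 3.87, 7.80 and 7.75 CPM in ND-fed and 24.6, 19.3, 35.4 and 21.7 CPM in CDAHFD-fed Cyp2b-null libraries. Diets did not overlap within a sex and genotype. Col6a1 rose by 1.14 ± 0.23 (SE) in WT females, 1.11 ± 0.22 (SE) in Cyp2b-null females, 2.06 ± 0.27 (SE) in WT males and 1.86 ± 0.26 (SE) in Cyp2b-null males on the log2 scale (adjusted p from 4.79e-06 to 0.000752).

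Col6a2, the neighbor of Col6a1 on chromosome 10, lay below it in every group mean. In females, Col6a2 measured 4.57, 2.68, 3.70 and 3.27 CPM in ND-fed WT and 8.32, 8.73, 19.3 and 14.8 CPM in CDAHFD-fed WT libraries, and 2.72, 5.75, 4.22 and 4.85 CPM in ND-fed and 10.6, 15.4, 15.5 and 10.7 CPM in CDAHFD-fed Cyp2b-null libraries. In males, Col6a2 measured 2.94, 1.32, 3.70 and 4.16 CPM in ND-fed WT and 11.6, 9.58, 19.8 and 15.6 CPM in CDAHFD-fed WT libraries, and 3.22, 1.82, 5.69 and 2.88 CPM in ND-fed and 18.2, 16.03, 21.9 and 13.5 CPM in CDAHFD-fed Cyp2b-null libraries. Its log2 change was 1.85 ± 0.30 (SE) in WT females, 1.55 ± 0.29 (SE) in Cyp2b-null females, 2.25 ± 0.32 (SE) in WT males and 2.36 ± 0.31 (SE) in Cyp2b-null males (adjusted p from 4.05e-06 to 0.000329).

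Col6a3, the largest type VI chain and the source of endotrophin, had a larger estimate than its partner chains in each of the 4 comparisons. In females, Col6a3 measured 5.76, 4.59, 5.39 and 5.69 CPM in ND-fed WT and 21.9, 31.2, 36.1 and 34.7 CPM in CDAHFD-fed WT libraries, and 4.54, 12.7, 6.91 and 6.36 CPM in ND-fed and 20.1, 40.5, 22.1 and 27.5 CPM in CDAHFD-fed Cyp2b-null libraries. In males, Col6a3 measured 5.15, 3.81, 2.47 and 5.91 CPM in ND-fed WT and 22.9, 26.02, 42.3 and 44.4 CPM in CDAHFD-fed WT libraries, and 2.67, 5.24, 4.64 and 4.21 CPM in ND-fed and 31.9, 38.4, 54.3 and 30.8 CPM in CDAHFD-fed Cyp2b-null libraries. The ND-fed Cyp2b-null female replicate 2 (12.7 CPM) and the CDAHFD-fed Cyp2b-null female replicate 2 (40.5 CPM) stood above the rest of their groups. The log2 change of Col6a3 was 2.53 ± 0.28 (SE, adjusted p = 1.44e-06) in WT females, 1.85 ± 0.27 (SE, adjusted p = 2.52e-05) in Cyp2b-null females, 3.02 ± 0.29 (SE, adjusted p = 8.19e-08) in WT males and 3.28 ± 0.29 (SE, adjusted p = 2.15e-08) in Cyp2b-null males. The genes Col6a4, Col6a5 and Col6a6 were not tested.

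Col14a1, which coats fibrils and was the second most abundant collagen mRNA per kb on ND, rose less than the type I and type VI chains. In females, Col14a1 measured 58.04, 62.7, 60.6 and 72.2 CPM in ND-fed WT and 90.2, 95.8, 121 and 89.97 CPM in CDAHFD-fed WT libraries, and 58.1, 50.4, 59.5 and 58.2 CPM in ND-fed and 91.1, 86.6, 81.7 and 83.2 CPM in CDAHFD-fed Cyp2b-null libraries. In males, Col14a1 measured 54.98, 46.8, 50.1 and 47.7 CPM in ND-fed WT and 83.2, 89.5, 86.6 and 105 CPM in CDAHFD-fed WT libraries, and 39.6, 40.8, 40.2 and 37.2 CPM in ND-fed and 93.4, 72.5, 103 and 108 CPM in CDAHFD-fed Cyp2b-null libraries. The replicates were close to each other and the diets did not overlap. It rose by 0.67 ± 0.13 (SE, adjusted p = 0.000447) in WT females, 0.63 ± 0.13 (SE, adjusted p = 0.000767) in Cyp2b-null females, 0.87 ± 0.12 (SE, adjusted p = 1.38e-05) in WT males and 1.26 ± 0.13 (SE, adjusted p = 1.13e-07) in Cyp2b-null males.

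The related fibril coat chain Col12a1 gave an uncertain call. In females, Col12a1 measured 2.58, 3.06, 3.70 and 1.21 CPM in ND-fed WT and 3.28, 6.61, 3.99 and 5.62 CPM in CDAHFD-fed WT libraries, and 2.12, 3.37, 2.30 and 1.67 CPM in ND-fed and 3.27, 5.39, 2.86 and 4.46 CPM in CDAHFD-fed Cyp2b-null libraries. In males, Col12a1 measured 4.78, 2.32, 1.92 and 0.437 CPM in ND-fed WT and 4.93, 1.87, 3.97 and 3.37 CPM in CDAHFD-fed WT libraries, and 3.11, 3.87, 2.32 and 2.66 CPM in ND-fed and 2.25, 3.02, 4.08 and 2.46 CPM in CDAHFD-fed Cyp2b-null libraries. The diets overlapped in all 4 combinations of sex and genotype. It passed the test in WT females alone, where its log2 change was 0.999 ± 0.36 (SE, adjusted p = 0.0458), and its change was 0.80 ± 0.36 (SE, adjusted p = 0.094) in Cyp2b-null females, 0.58 ± 0.42 (SE, adjusted p = 0.317) in WT males and 0.022 ± 0.41 (SE, adjusted p = 0.973) in Cyp2b-null males. The call in WT females was lost without ND-fed replicates 1, 2 or 4 (adjusted p = 0.0857, 0.0533 and 0.186) or CDAHFD-fed replicates 2 or 4 (adjusted p = 0.136 and 0.121).

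Col20a1, a related chain of low level, had lower estimates on CDAHFD. In females, Col20a1 measured 3.58, 1.53, 8.42 and 3.27 CPM in ND-fed WT and 1.75, 0.708, 0.997 and 1.09 CPM in CDAHFD-fed WT libraries, and 2.42, 3.97, 1.15 and 2.17 CPM in ND-fed and 1.26, 0.952, 1.07 and 1.93 CPM in CDAHFD-fed Cyp2b-null libraries. In males, Col20a1 measured 2.76, 3.64, 3.02 and 4.16 CPM in ND-fed WT and 0.379, 1.04, 0.935 and 0.532 CPM in CDAHFD-fed WT libraries, and 5.45, 1.82, 1.69 and 2.66 CPM in ND-fed and 0.805, 1.25, 1.33 and 0.41 CPM in CDAHFD-fed Cyp2b-null libraries. The ND-fed WT female replicate 3 (8.42 CPM) and Cyp2b-null male replicate 1 (5.45 CPM) stood above the other ND-fed libraries. The diets overlapped in females of both genotypes and not in males. Among CDAHFD-fed males, WT replicate 1 (0.379 CPM) and Cyp2b-null replicate 4 (0.41 CPM) lay under the floor of detection. The log2 change was -1.81 ± 0.47 (SE, adjusted p = 0.00667) in WT females, -2.17 ± 0.46 (SE, adjusted p = 0.00101) in WT males and -1.56 ± 0.42 (SE, adjusted p = 0.00571) in Cyp2b-null males, and -0.89 ± 0.47 (SE, adjusted p = 0.158) in Cyp2b-null females, which did not pass. Without ND-fed Cyp2b-null male replicate 1, the change in Cyp2b-null males did not pass (adjusted p = 0.0848). With only the groups compared in the fit, Col20a1 had too few counts to be tested in WT females and in Cyp2b-null males. Col20a1 passed the count filter of the main fit mainly through its ND-fed libraries, so its calls are descriptions. The counts of collagens that fell in WT females, WT males and Cyp2b-null males include Col20a1.

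Among the remaining chains, the fibril coat gene Col16a1 rose in WT females (1.61 ± 0.32 (SE, adjusted p = 0.000767)) and Cyp2b-null females (1.23 ± 0.35 (SE, adjusted p = 0.0111)), and gave 0.95 ± 0.43 (SE, adjusted p = 0.1) and 0.91 ± 0.42 (SE, adjusted p = 0.0949) in WT and Cyp2b-null males. The change in Cyp2b-null males passed under scaling by library size only (adjusted p = 0.0214), in a single fit of all 32 libraries (0.0477) and with only the groups compared (0.0418), and that in WT males under scaling by library size only (0.0206). The membrane-spanning Col13a1 fell in Cyp2b-null females (-0.95 ± 0.29 (SE, adjusted p = 0.0162)) and gave log2 changes of -0.32 to 0.14 elsewhere, with no call. Its call in Cyp2b-null females was lost under scaling by library size only and in a single fit of all 32 libraries. The network-forming Col8a1 passed the count filter in males only, through its CDAHFD-fed libraries, so that its call in Cyp2b-null males is a description. There it had 2, 0, 1 and 0 counts in ND-fed and 15, 12, 26 and 26 counts in CDAHFD-fed libraries, a ratio of rates of 18.2 (exact 95% interval 6.02 to 90.3, counting error only). The same ratio was 3.37 (1.63 to 7.62) in WT males, where the test gave an adjusted p of 0.0651, 6.01 (2.36 to 19.6) in WT females and 4.20 (1.61 to 13.9) in Cyp2b-null females. In WT males Col8a1 passed with DESeq2 (adjusted p = 0.0477), under scaling by library size only (0.0166) and in a single fit of all 32 libraries (0.0478). With a filter that kept genes reaching 1 CPM in 4 libraries or more, it also passed in WT females (adjusted p = 0.00988) and in Cyp2b-null females (0.0384). Col8a1 entered these fits through its CDAHFD-fed libraries too, so these passes are descriptions as well. The counts of collagens that rose in Cyp2b-null males include Col8a1.

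In all, 22 collagen genes were tested in neither sex, because their counts were too low. None of their values exceeded 15 counts in a library, and Col9a1 and Col19a1 had no read in any of the 32 libraries, so changes in these 22 genes were not detectable at this depth. Col4a3bp, which is not a collagen, passed in Cyp2b-null females with a log2 change of -0.59.

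Genes that fold, trim and cross-link collagen chains were counted from a list of 27. In WT females 10 of 21 tested rose and 2 fell, in WT males 10 of 22 rose and 3 fell, in Cyp2b-null females 11 of 21 rose and 2 fell, and in Cyp2b-null males 11 of 22 rose and 3 fell, with median log2 changes of 0.41, 0.44, 0.51 and 0.72. Among all genes 13.9% rose and 10.2% fell in WT females, 18% and 15% in WT males, 16.9% and 13.9% in Cyp2b-null females, and 20.3% and 17.1% in Cyp2b-null males. Serpinh1, the collagen chaperone Hsp47, rose by 1.33 ± 0.17 (SE) in WT females, 1.29 ± 0.18 (SE) in WT males, 1.65 ± 0.17 (SE) in Cyp2b-null females and 1.98 ± 0.18 (SE) in Cyp2b-null males. Plod2, a lysyl hydroxylase that prepares cross-links, rose by 2.32 ± 0.55 (SE), 2.43 ± 0.69 (SE), 1.92 ± 0.50 (SE) and 2.85 ± 0.68 (SE) in the same order, and Pcolce, an enhancer of propeptide removal, by 0.89 ± 0.27 (SE), 1.46 ± 0.27 (SE), 0.99 ± 0.27 (SE) and 1.72 ± 0.27 (SE). P4ha1, a subunit of prolyl 4-hydroxylase, was not called in any of the 4 comparisons (-0.14, 0.14, 0.43 and 0.68). Mia3, which helps load collagen for export, fell in WT males (-0.44 ± 0.13 (SE, adjusted p = 0.0137)), Cyp2b-null females (-0.88 ± 0.17 (SE, adjusted p = 0.000482)) and Cyp2b-null males (-0.45 ± 0.13 (SE, adjusted p = 0.00921)), and gave -0.24 ± 0.17 (SE, adjusted p = 0.329) in WT females; it was named after its values were seen.

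Of 10 genes for collagen receptors, 6 were tested. In WT females 3 rose and 0 fell, in WT males and Cyp2b-null males 4 rose and 0 fell, and in Cyp2b-null females 3 rose and 1 fell, where 24.1% of all genes were called in WT females, 33% in WT males, 37.4% in Cyp2b-null males and 30.8% in Cyp2b-null females. Ddr1, a receptor tyrosine kinase for collagen, rose by 2.80 ± 0.42 (SE), 2.77 ± 0.50 (SE), 2.03 ± 0.38 (SE) and 4.03 ± 0.54 (SE) in WT females, WT males, Cyp2b-null females and Cyp2b-null males. Its relative Ddr2 rose in WT and Cyp2b-null males (0.77 ± 0.22 (SE, adjusted p = 0.0101) and 0.79 ± 0.22 (SE, adjusted p = 0.00648)) and gave 0.28 ± 0.19 (SE, adjusted p = 0.33) and 0.23 ± 0.20 (SE, adjusted p = 0.404) in WT and Cyp2b-null females.

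Markers of the cell types in the liver were counted beside the collagens, against the shares of all genes called by diet (24.1% in WT females, 33% in WT males, 30.8% in Cyp2b-null females and 37.4% in Cyp2b-null males). Of 12 hepatic stellate cell markers, 4 rose and 1 fell in WT females, 6 rose and 0 fell in WT males, 6 rose and 1 fell in Cyp2b-null females, and 10 rose and 1 fell in Cyp2b-null males, which is 41.7%, 50%, 58.3% and 91.7% called. Their summed level ranged from 293 to 389 CPM on ND and from 314 to 380.1 CPM on CDAHFD in females, which overlap, and from 164 to 221 CPM on ND and from 225 to 336 CPM on CDAHFD in males, which do not. No marker of this list was at 0 in all 4 libraries of any group. Acta2, the smooth muscle actin of activated stellate cells, rose by 4.16 ± 0.51 (SE) in WT females, 3.17 ± 0.50 (SE) in WT males, 2.98 ± 0.46 (SE) in Cyp2b-null females and 3.04 ± 0.48 (SE) in Cyp2b-null males, whereas Lrat, which stores retinol in quiescent stellate cells, gave 0.33, 0.20, 0.10 and 0.16 and was not called. Pdgfrb rose in all 4 comparisons (0.92, 1.09, 1.29 and 1.61), and Des in the Cyp2b-null groups (0.77 in females and 1.15 in males) with 0.53 and 0.69 in WT females and males.

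Of 10 fibroblast and mesothelial markers, 7 were tested in females, of which 2 rose in WT and 3 in Cyp2b-null mice, and 8 in males, of which 4 rose in each genotype, with 0 falls (28.6%, 42.9%, 50% and 50% called in WT females, Cyp2b-null females, WT males and Cyp2b-null males). Their summed level was 51.3 to 91.7 CPM on ND and 80.4 to 161 CPM on CDAHFD over all libraries. The 3 leukocyte markers tested of 5 rose in all 4 comparisons, with sums of 17.3 to 57.4 CPM on ND and 86.5 to 219.9 CPM on CDAHFD. Of 6 sinusoidal endothelial markers, 2 fell in WT females, 1 rose and 1 fell in WT males, 3 fell in Cyp2b-null females and 3 rose in Cyp2b-null males (33.3% called in WT mice of either sex and 50% in Cyp2b-null mice of either sex), with sums of 145 to 289 CPM on ND and 124 to 260.4 CPM on CDAHFD. Of 8 hepatocyte markers, 4 to 6 fell and 0 rose in each comparison (50% to 75.0% called), and Alb changed by -0.77, -0.65, -0.72 and -0.67 on the log2 scale in WT females, WT males, Cyp2b-null females and Cyp2b-null males. No marker of these 4 lists was at 0 in all libraries of a group, and their part in the collagen changes was not tested.

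The sexes were compared by the difference between the diet change in males and in females, fitted on all 8 groups. In WT mice 1 of 22 collagens differed, where 0.97% of 14020 genes did, and in Cyp2b-null mice 4 of 22 differed, against 3.4% (2.09% higher and 1.31% lower in males). Col5a3 differed in both genotypes, with male minus female changes of -1.47 ± 0.32 (SE, adjusted p = 0.015) in WT and -2.25 ± 0.33 (SE, adjusted p = 0.000101) in Cyp2b-null mice. In Cyp2b-null mice the rise was larger in males for Col6a3 (1.45 ± 0.42 (SE, adjusted p = 0.0457)), Col4a1 (0.83 ± 0.22 (SE, adjusted p = 0.0275)) and Col14a1 (0.65 ± 0.17 (SE, adjusted p = 0.025)). The same differences in WT mice were 0.51 ± 0.43 (SE, adjusted p = 0.794) for Col6a3, -0.15 ± 0.22 (SE, adjusted p = 0.904) for Col4a1 and 0.23 ± 0.17 (SE, adjusted p = 0.743) for Col14a1. In Cyp2b-null mice, 3 of 6 sinusoidal endothelial markers (median 1.08, all 6 above 0) and all 3 leukocyte markers tested (median 1.53) were also called for a larger change in males, as was 1 of 12 stellate cell markers (median 0.29), and their part in the collagen differences was not tested. The Col14a1 call was lost without a low-count filter (adjusted p = 0.0914) and the Col6a3 call under scaling by library size only (adjusted p = 0.0571). Whether these sex differences themselves differed between genotypes was not tested.

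**Figure D4:**
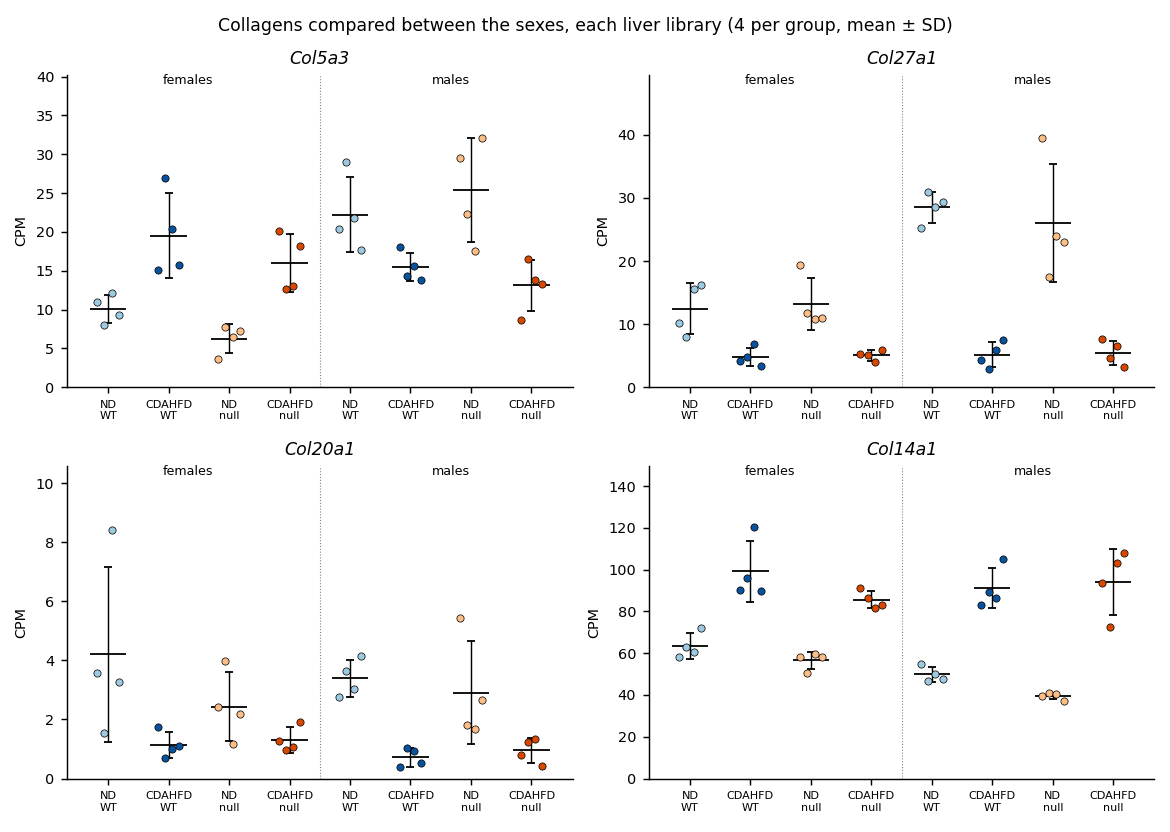
CPM (vertical axis) of Col5a3, Col27a1, Col20a1 and Col14a1 in each of the 32 libraries by group (horizontal axis, females left and males right of the dotted line). Points are libraries, long lines means and bars SD. Col5a3 lies at 3.63 to 12.1 CPM in ND-fed females and 17.5 to 32.1 CPM in ND-fed males.

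The heat maps of the study leave out replicate 3 of the females and replicate 4 of the males in the CDAHFD-fed Cyp2b-null groups. Only the Col5a3 difference remained without both, and the adjusted p was then 0.0799 for Col6a3, 0.0713 for Col4a1 and 0.093 for Col14a1. Col6a3 lost its call without 10 of the 16 Cyp2b-null libraries, one at a time, and its difference became 1.06 (adjusted p = 0.19) without ND-fed Cyp2b-null female replicate 2, its highest ND-fed library. Col1a1 and Col27a1 also gave WT differences of 1.39 ± 0.55 (SE, adjusted p = 0.305) and -1.02 ± 0.41 (SE, adjusted p = 0.308) that did not pass, and the one for Col1a1 passed without a low-count filter (1.37, adjusted p = 0.000436). The unfiltered fit called 330 of all genes higher and 139 lower for this WT difference, where the filtered fit called 94 and 42.

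Loss of Cyp2b left no collagen gene past the threshold on either diet. On CDAHFD, 0 of 21 tested genes were called in females and 0 of 22 in males, where 0.0227% and 0.0297% of all genes were, and 3 and 1 collagens had an unadjusted p under 0.05, as did 771 of 13226 and 487 of 13460 genes. On ND, 0 of 21 were called in females and 0 of 22 in males, against 0.0756% (0.0605% lower in Cyp2b-null) and 0.0371% of all genes, and 2 and 3 collagens had an unadjusted p under 0.05, as did 760 and 1112 of all genes. DESeq2 also called 0 in each of these 4 comparisons. The diet by genotype interaction gave 0 of 21 in females and 0 of 22 in males (0% and 0.00743% of all genes, 2 and 3 collagens and 830 and 817 of all genes at an unadjusted p under 0.05), and 0 of 22 differed between the sexes in their genotype effect on CDAHFD (0.00713% of all genes, 2 collagens and 439 of 14020 genes at an unadjusted p under 0.05), again with 0 by DESeq2.

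**Figure D5:**
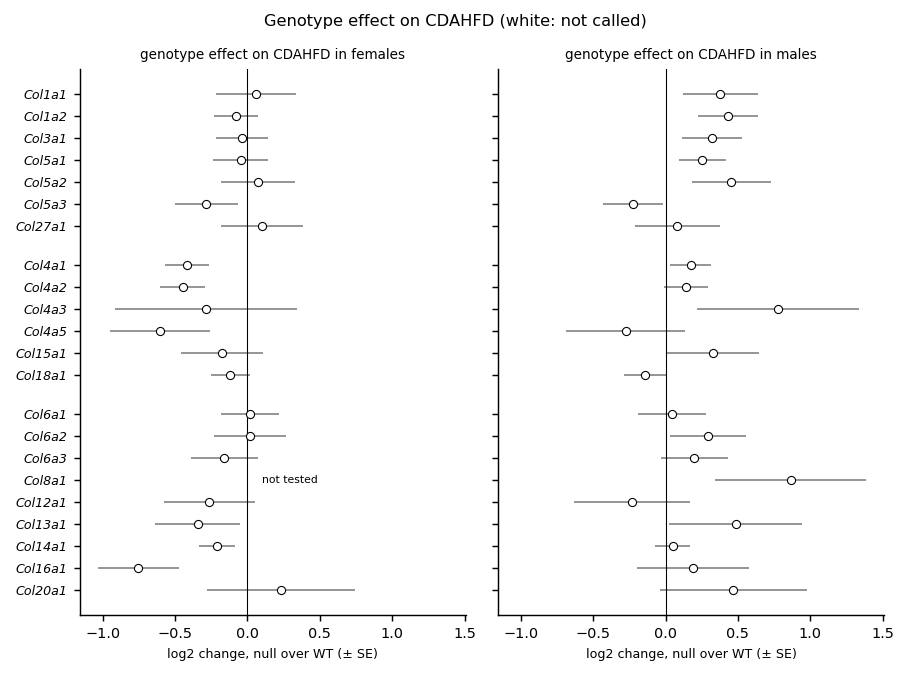
Log2 change by genotype on CDAHFD (Cyp2b-null over WT, horizontal axis) of the tested collagen genes (vertical axis, from top to bottom fibrillar, basement membrane and other) in females (left) and males (right). Points are edgeR estimates and bars their SE, and white marks genes that did not pass. In females the values lie between -0.76 and 0.23, and in males between -0.28 and 0.86.

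On CDAHFD the genotype changes of the main fibrillar chains were small in females. Col1a1 gave 0.06 ± 0.28 (SE, adjusted p = 0.971), with approximate 95% limits (1.96 SE) of -0.48 and 0.60, Col1a2 gave -0.08 ± 0.15 (SE) with limits of -0.38 and 0.22, and Col3a1 -0.035 ± 0.18 (SE) with limits of -0.39 and 0.32. In males the estimates were 0.38 ± 0.26 (SE) for Col1a1 with limits of -0.13 and 0.89, 0.43 ± 0.21 (SE) for Col1a2 with limits of 0.026 and 0.84 and 0.32 ± 0.21 (SE) for Col3a1 with limits of -0.089 and 0.73 (adjusted p = 1 for all 3). Missing the threshold does not show that the genotypes were alike, and differences of this size lie inside those limits.

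The lowest unadjusted p values for genotype on CDAHFD in females belonged to type IV collagen and Col16a1. The values were -0.42 ± 0.15 (SE) for Col4a1 (unadjusted p = 0.0121), -0.45 ± 0.16 (SE) for Col4a2 (unadjusted p = 0.00923) and -0.76 ± 0.28 (SE) for Col16a1 (unadjusted p = 0.0134) from edgeR's quasi-likelihood test, all with an adjusted p of 0.826. In the libraries, Col4a2 had 36.9 to 48.4 CPM in CDAHFD-fed Cyp2b-null and 49.8 to 68.6 CPM in CDAHFD-fed WT females, without overlap, whereas Col4a1 overlapped (70.9 to 88.8 against 82.7 to 121 CPM). In males on CDAHFD, the estimates were 0.17 ± 0.14 (SE) for Col4a1, 0.14 ± 0.15 (SE) for Col4a2 and 0.19 ± 0.39 (SE) for Col16a1. All 6 tested basement membrane genes had negative estimates in females on CDAHFD, with a median of -0.35, and 4 of 6 were positive in males, with a median of 0.16, while the medians of all genes were -0.0068 and 0.0050. Over all tested collagens 15 of 21 estimates were negative in females and 18 of 22 positive in males. Of 6 sinusoidal endothelial markers 5 were negative in females and 6 positive in males. For stellate cell markers these counts were 5 of 12 and 7 of 12, and for fibroblast and mesothelial markers 1 of 7 and 4 of 8. They were 1 of 3 and 3 of 3 for leukocyte markers, and 3 of 8 and 2 of 8 for hepatocyte markers. None of these genes was called. Genes measured in the same libraries are not replicates, so the signs are descriptions. The sex difference of this genotype effect was called for 0 of 22 collagens.

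On ND, Col1a1 gave 1.06 ± 0.42 (SE, adjusted p = 0.49) between genotypes in males and -0.72 ± 0.43 (SE, adjusted p = 0.906) in females. The male value passed without a low-count filter (1.06, adjusted p = 0.00153), and the level was 2.15 to 5.33 CPM in ND-fed WT and 3.22 to 12.9 CPM in ND-fed Cyp2b-null males, which overlap. The unfiltered fit called 72 of all genes higher and 98 lower for this comparison, where the filtered fit called 1 and 4. The interaction estimates of Col1a1 were 0.78 ± 0.51 (SE, adjusted p = 0.773) in females and -0.68 ± 0.50 (SE, adjusted p = 0.887) in males, and the lowest unadjusted p among collagens, 0.00949 by edgeR's quasi-likelihood test, belonged to Col4a1 in males (0.60 ± 0.21 (SE, adjusted p = 0.699)).

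Chains of the same collagen type were also compared as ratios of their counts within each library, which do not depend on how libraries are scaled. Col3a1 was set against Col1a1 in the same way, although they belong to different types. Type I collagen is assembled from more Col1a1 than Col1a2 chains. The ratio of Col1a1 to Col1a2 counts (geometric mean, n = 4) was 0.329 in ND-fed and 1.03 in CDAHFD-fed WT males, 0.358 and 0.886 in Cyp2b-null females, and 0.539 and 0.984 in Cyp2b-null males, without overlap between diets. In WT females it was 0.542 and 0.806 with overlap, since the ND-fed replicate 3 had the highest ratio of all. Each non-overlapping pair gave p = 0.0286 in an exact two-sided permutation test, the smallest that 4 against 4 libraries allow, and an adjusted p of 0.0857 over the 30 ratio comparisons made. None of the 30 passed, and 10 had an unadjusted p of 0.0286. With 4 against 4 libraries, a ratio could pass only if most of the 30 comparisons reached this smallest p. Missing the threshold therefore says little about any single ratio. Col3a1 counts per Col1a1 count were 7.23 on ND and 2.51 on CDAHFD in WT males, 5.54 and 2.97 in Cyp2b-null females, and 3.92 and 2.40 in Cyp2b-null males (adjusted p = 0.0857 each by the exact permutation test). In WT females they were 4.19 and 3.20 (exact permutation test, adjusted p = 0.583).

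Col5a1 outnumbered Col5a2 on ND and less so on CDAHFD, with ratios of 3.95 and 1.25 in WT females, 2.04 and 1.13 in Cyp2b-null females, 3.86 and 1.64 in WT males and 3.65 and 1.38 in Cyp2b-null males. The adjusted p by the exact permutation test was 0.0857 in females of both genotypes, 0.171 in WT males and 0.143 in Cyp2b-null males. Col4a1 stayed within 1.30 to 1.93 counts per Col4a2 count in every group mean, without overlap between diets in Cyp2b-null mice of either sex (exact permutation test, adjusted p = 0.0857), and Col6a1 within 1.43 to 2.50 counts per Col6a2 count. Between genotypes on CDAHFD, the Col1a1 to Col1a2 ratio was 0.886 in Cyp2b-null and 0.806 in WT females (exact permutation test, adjusted p = 0.316), and 0.984 and 1.03 in males (exact permutation test, adjusted p = 0.5).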

How the data were processed

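Liver RNA of 32 libraries was measured by RNA-seq. According to the methods of the study, RNA was extracted with TRIzol, libraries were prepared with a NEB Next Ultra kit and run on a NovaSeq instrument, and reads were checked with FastQC, trimmed with Trimmomatic, aligned to GRCm38.p6 with GSNAP and counted on genes with Subread. Versions and the settings for strand and for reads that map more than once are not given in the sources used here, so reads in the overlap of Col4a1 and Col4a2 cannot be assigned. The authors deposited raw counts per gene, not normalized, in 1 table per sex, with 41585 gene entries (27 symbols turned into dates, of which 2 occur on more than 1 row, none a collagen).

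Counts were analysed with edgeR 4.0.16 in R 4.3.3. Genes passed filterByExpr (minimum count 10, total 15), libraries were scaled with TMM, and the quasi-likelihood test used the 4 groups of a sex in 1 fit, or all 8 groups for sex differences. The Benjamini-Hochberg adjustment covered every gene tested, with calls at an adjusted p under 0.05. A filter passed through the group where a gene is high selects genes that can change, so untested members were counted separately. Levels are CPM with TMM factors over all 32 libraries, and levels per kb use the longest protein-coding transcript in GENCODE vM21. Sequences and gene positions are from RefSeq (GRCm38.p6). Chain ratios were tested with exact two-sided permutation tests (SciPy 1.17.1). The diet test in WT mice was run on simulated counts with known changes. It called 97% (females) and 91% (males) of genes with a log2 change of 2, but 36% and 29% with a log2 change of 1. The simulation gave all genes the same dispersion and changed only 100 genes by each size, all with a mean of at least 10 counts. Far more genes were called by diet in the real data, so these shares need not hold there.

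The members and the lists were chosen with earlier results of these data known. Per-library values are given for 14 collagens listed by role, for the 2 called members of each class with the largest rise and the 2 with the largest fall by diet in WT mice of each sex (mean of at least 1 CPM), and for members called for genotype, interaction or sex. Of the other lists, examples were named by role or by the size of their change, and Mia3 after its values were seen. Alternatives were DESeq2 1.42.0, RLE factors, library size only, no filter, at least 1 CPM in at least 4 libraries, the likelihood ratio test, fits of only the groups compared, 1 fit of all 32 libraries, the replicate number as a block, counts plus 1 for ratios, leaving out each library, and leaving out the 2 libraries that the heat maps of the study do not show. Group labels came from the titles of the libraries.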

Additional observations from a re-analysis of the deposited data

Results flagged for a closer look

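Among 136 sets of 4 libraries (17 collagens in 8 groups), 8 held a library far from the others by Dixon's criterion at the 95% level, where chance flags about 1 in 20 sets. In ND-fed WT males, replicate 1 had 5.33 CPM of Col1a1 (others 2.15 to 2.62 CPM) and 4.96 CPM of Col5a1 (others 7.11 to 7.44 CPM). In ND-fed Cyp2b-null females, replicate 2 was low for Col3a1 (14.3 CPM, others 24.8 to 26.6 CPM) and for Col14a1 (50.4 CPM, others 58.1 to 59.5 CPM), and replicate 1 was high for Col27a1 (19.4 CPM, others 10.8 to 11.7 CPM). In CDAHFD-fed Cyp2b-null females, replicate 2 had 14.4 CPM of Col15a1 (others 8.32 to 9.31 CPM). In ND-fed WT females, replicate 4 had 1257 CPM of Col18a1 (others 918 to 942 CPM), and in ND-fed Cyp2b-null males replicate 2 had 3.87 CPM of Col6a1 (others 7.75 to 8.11 CPM).

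The diet effect differed between the sexes, male minus female on the log2 scale, for Col5a3 in WT mice (-1.47, adjusted p = 0.015) and in Cyp2b-null mice (-2.25, adjusted p = 0.000101), and in Cyp2b-null mice for Col6a3 (1.45, adjusted p = 0.0457), Col4a1 (0.83, adjusted p = 0.0275) and Col14a1 (0.65, adjusted p = 0.025). The Col5a3 difference kept its call without each single library. The other 3 did not. For Col4a1, adjusted p was 0.0532, 0.0721 and 0.055 without ND-fed Cyp2b-null female replicates 1, 2 and 4, 0.0512 without CDAHFD-fed female replicate 1, 0.0628 without ND-fed male replicate 4 and 0.0819 without CDAHFD-fed male replicate 3. For Col14a1, adjusted p was 0.0546 without ND-fed Cyp2b-null male replicate 4, and 0.0705 and 0.063 without CDAHFD-fed male replicates 3 and 4. For Col6a3, the call was lost without 10 of the 16 Cyp2b-null libraries, with the highest adjusted p (0.19) without ND-fed female replicate 2.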

How the results depend on the processing

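Several collagen counts and calls depended on the settings. Scaled by library size only, which moved the median log2 diet change of all genes to 0.28 to 0.37, 4 basement membrane genes were called in WT males in place of 2, 17 collagens in place of 13 were called there, and the uncalled log2 change of Col18a1 turned positive: 0.17 for Col18a1, diet effect in WT females, 0.059 for Col18a1, diet effect in Cyp2b-null females, 0.19 for Col18a1, diet effect in WT males, and 0.25 for Col18a1, diet effect in Cyp2b-null males. Without a low-count filter, 1 collagen (Col1a1) was called for genotype on ND in males in place of 0, and 2 (Col5a3 and Col1a1) in place of 1 for a diet effect that differs by sex in WT mice. Calls among all genes grew as well, from 1 higher and 4 lower to 72 and 98 for genotype. For the sex difference they grew from 94 and 42 to 330 and 139. Without the 2 libraries not shown in the heat maps of the study, 1 collagen in place of 4 was called for the sex difference of the diet effect in Cyp2b-null mice, and leaving out single libraries gave 1 to 4, with 2 without ND-fed Cyp2b-null female replicate 2 or CDAHFD-fed Cyp2b-null female replicate 1 and 1 without ND-fed Cyp2b-null male replicate 4 or CDAHFD-fed Cyp2b-null male replicate 3. Col12a1, diet effect in Cyp2b-null males, was not called and turned to -0.079, -0.029 and -0.19 without ND-fed replicates 3 and 4 and CDAHFD-fed replicate 3, in a range of -0.19 to 0.15. In 1 fit of all 32 libraries the adjusted p of Col12a1 in WT females was 0.0813. Among Cyp2b-null females the Col16a1 call was lost without ND-fed replicate 4 (adjusted p = 0.053) and the Col13a1 call without ND-fed replicate 2 (0.0753) or CDAHFD-fed replicate 2 (0.0541). Without single libraries, diet called 16 to 17 collagens in WT females, 13 to 15 in WT males, 14 to 16 in Cyp2b-null females and 16 to 17 in Cyp2b-null males. Correlations of same-numbered libraries had medians of -0.008 in females and 0.025 in males. They reached 0.177 and 0.292, against 0.153 and 0.2 for libraries of different numbers. These values do not show that the libraries were unpaired. A replicate block called 16, 15, 13 and 16 collagens by diet in WT females, Cyp2b-null females, WT males and Cyp2b-null males. It called 0 for genotype, and 1 and 4 for the sex differences. With DESeq2, RLE factors and the CPM filter no result named here lost its call or turned. The cause of these shifts was not tested. Counts as low as 0 to 3 on ND limit Col8a1 and Col5a2, counts as low as 2 on CDAHFD limit Col20a1, and 22 collagens could not be tested at this depth.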
